A study of Bos taurus with 20 samples.

Results

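The genes described are the 7 cyclin-dependent kinase (CDK) inhibitor genes CDKN1A, CDKN1B, CDKN1C, CDKN2A, CDKN2B, CDKN2C and CDKN2D, together with MDM2 and GDF15. They were chosen by symbol, and all 9 were found among the 33063 named genes of the count table. The libraries came from undifferentiated bovine adipose mesenchymal stem cell (MSC) clones, 10 adipogenic (A) and 10 non-adipogenic (N), with 1 library per clone. A clones had stained strongly for lipid after an adipogenic differentiation test and N clones had not stained at all. RNA came from cells of these clones that had not been differentiated. The donors were crossbred Holstein Friesian x Aberdeen Angus calves up to a few months old, with visceral fat as the source. Both clone types came from every animal: 1 of each type from animals 17 and 20, and 4 of each type from animals 22 and 23. All clones were grown from single sorted cells in medium with fetal bovine serum, basic FGF, penicillin and streptomycin. Per the paper, conditioned medium from MSC cultures of the same animal was added, so its effect cannot be told apart from that of the animal. No clone carried a genetic change or received a drug treatment. Each clone descends from 1 cell and has 1 library, so clone and library effects cannot be told apart.

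CDK inhibitors are small proteins that bind CDKs or cyclin-CDK complexes and slow entry into the cell cycle. The INK4 family, encoded by CDKN2A (p16), CDKN2B (p15), CDKN2C (p18) and CDKN2D (p19), binds CDK4 and CDK6 and so keeps the retinoblastoma protein active. The CIP/KIP family, encoded by CDKN1A (p21), CDKN1B (p27) and CDKN1C (p57), acts on a wider range of complexes. CDKN1A and MDM2 are classical targets of the transcription factor p53. MDM2 is the ubiquitin ligase that degrades p53, and the alternative product of CDKN2A, ARF, blocks MDM2. GDF15 is a secreted factor of the TGF-beta family induced by p53 and by the integrated stress response. In MSC cultures p16 and p21 are widely used as signs of replicative ageing, and in preadipocytes CDK inhibitors take part in the growth arrest that precedes differentiation.

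Each library held between 14615493 and 43111345 counts on named genes, the most in N clone 22-18. Levels are given as CPM, counts relative to library size scaled by the TMM factor, and differences as log2 of A minus N with the animal as a block. Values in CPM are not corrected for gene length, so levels are compared between clones and not between genes. All 6 MSC markers examined were detected in every clone, and 0 of the 6 passed the test between A and N clones. CD44 and ENG stayed at or above 231 and 19.1 CPM. NT5E and THY1 fell to 0.508 and 0.395 CPM in the lowest clone, against medians of 109 and 60.1 CPM. Summed CPM of 7 mesothelial markers reached 9198 in N clone 22-5 and 6512 in N clone 22-9, against a median of 157 in N clones and 58.8 in A clones. Of 5 endothelial markers, CDH5 and KDR stayed at or below 0.31 and 0.49 CPM in every clone, while TEK, PECAM1 and VWF reached 3.27, 16.3 and 30.1 CPM in the highest clone. Of 5 macrophage and leukocyte markers, PTPRC stayed at or below 0.25 CPM, while CSF1R, CD163, CD14 and CD68 reached 2.38, 3.41, 6.57 and 6.74 CPM. The summed CPM of the endothelial list ran from 1.07 to 41.3 in N and from 5.12 to 23.7 in A clones, and that of the macrophage and leukocyte list from 0.885 to 9.95 and from 2.60 to 12.4. Between the clone types, 1 of 6 mesothelial markers tested was lower in A clones, 1 of 5 smooth muscle and pericyte markers, 1 of 3 mature adipocyte markers and the 1 macrophage and leukocyte marker tested, CD68 (log2 difference 1.06, adjusted p = 0.0157), were higher, and 0 of 3 endothelial markers passed. The part of other cell types in the differences below was not tested beyond leaving out clones 22-5 and 22-9.

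Of the 8 genes that passed the filter on low counts, only CDKN2D differed between A and N clones, and it was lower in A clones. That is 1 of 8, or 12.5%, where 20.6% of all 12900 genes tested passed an adjusted p of 0.05, 10.3% as higher and 10.3% as lower in A clones (quasi-likelihood test in edgeR, Benjamini-Hochberg adjustment). In all, 4 of the 8 stood at an unadjusted p under 0.05. The 4 were CDKN1B, CDKN2A, CDKN2C and CDKN2D. The median log2 difference over the 8 was 0.03, against -0.01 over all genes tested. The group did not move one way, since 4 fitted differences were above 0 and 4 below.

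**Figure D1:**
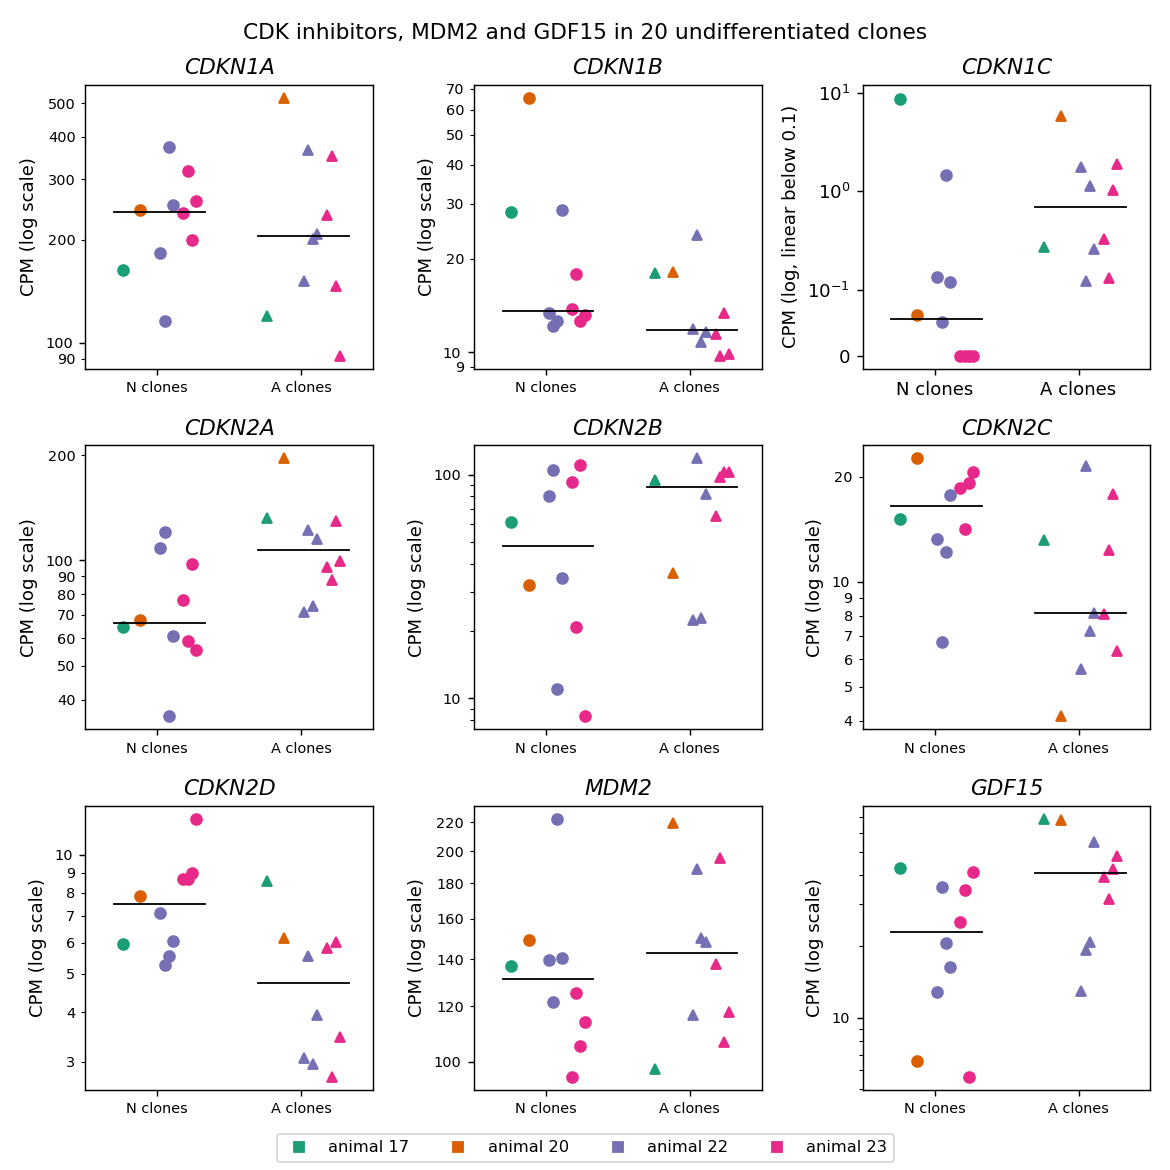
Level of each of the 9 genes in every clone, in CPM on a log axis (for CDKN1C the axis is linear below 0.1 so that counts of 0 can be shown), for N clones (circles) and A clones (triangles), with colour for the animal and a line at the group median. CDKN2D sits lower in A clones, where 5 of the 10 lie below every N clone, while the groups overlap widely for CDKN1A, CDKN2B and MDM2.

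CDKN1A, the p53-induced inhibitor p21, showed no detectable difference between the clone types. In N clones its level ran from 116 CPM in clone 22-18, through a median of 241, to 372 in clone 22-5. In A clones it ran from 91.7 CPM in clone 23-68, through a median of 204, to 519 in clone 20-106. The A clones thus spanned the N range on both sides, with 1 clone above and 1 below every N clone. Group means were 235 ± 74.2 and 239 ± 134 CPM (SD, n = 10 each), and the log2 difference was -0.06 (SE 0.26, 95% interval -0.60 to 0.49, adjusted p = 0.892). The sign of this difference was not stable: A clones were higher in animals 20 and 22 and lower in animals 17 and 23, and without clones 22-5 and 22-9 the fitted value was 0.12.

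CDKN1B encodes p27, an inhibitor that accumulates in resting cells. Its level in N clones ran from 12.2 CPM through a median of 13.6 to 65.6 CPM in clone 20-15, and in A clones from 9.76 through a median of 11.8 to 23.9 CPM in clone 22-121. In all, 6 A clones were under the lowest N clone, and A clones were lower in 4 of 4 animals. The log2 difference was -0.47 (SE 0.21, 95% interval -0.91 to -0.03), with an adjusted p of 0.117. Among fits with 1 clone left out, only that without clone 22-121, the highest A clone, passed (-0.61, adjusted p = 0.0264). The others gave differences as small as -0.32 and adjusted p up to 0.247.

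CDKN1C, an imprinted gene in many mammals that encodes p57, was at or near the detection limit in these cultures and did not pass the filter. In N clones, 4 clones had 0 counts, 4 had 1 to 9 and 2 had at least 10, with 160 counts in clone 17-23. No A clone had 0 counts, 5 had 1 to 9 and 5 had at least 10, with 118 counts in clone 20-106. In animal 23, all 4 N clones were at 0 counts and the 4 A clones had 2, 17, 26 and 9 counts, on average 0.844 ± 0.790 CPM (SD). That mean was at least 4.88-fold higher than the 0.173 CPM that 3 counts per library would give in those N clones. The fold is one of means, and A clone 23-14, at 0.131 CPM, was itself below that floor. All 10 A clones stood above the N median, but in animal 17 the order was the opposite. In a fit without the filter, where 11.8% of 23383 genes passed, the log2 difference was 2.34 (SE 1.13, adjusted p = 0.188). The exact permutation test of log2 CPM within animals gave p = 0.103, two-sided. At 0 to 160 counts per library, the difference in CDKN1C between the clone types passed in neither test.

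CDKN2A, the gene of p16 and ARF, stood higher in A clones in 4 of 4 animals without passing the test. Its level in N clones ran from 35.9 CPM in clone 22-5, through a median of 66.1, to 121 in clone 22-18. In A clones it ran from 71.3 CPM in clone 22-11, through a median of 107, to 196 in clone 20-106. Each of the 10 A clones exceeded the N median and 4 exceeded the highest N clone, while 6 N clones fell under the lowest A clone. The log2 difference was 0.55 (SE 0.21, 95% interval 0.10 to 0.999), with an adjusted p of 0.0759. This value sat near the threshold: DESeq2 with the animal block gave an adjusted p of 0.0395 and limma-voom 0.0358, and leaving out N clone 22-17 or 22-18 gave 0.0448 or 0.0267. Leaving out both 22-5 and 22-9 gave 0.159. Counts do not separate the p16 and ARF transcripts.

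CDKN2B encodes p15, an inhibitor known to be induced by TGF-beta, and it varied more between clones of the same type and animal than the other 7 genes tested. N clones spanned 8.31 to 110 CPM around a median of 48.1, and A clones 22.3 to 118 CPM around a median of 88.4. The lowest clone was N 23-74 and the highest A 22-121, 14.2-fold apart, and the groups overlapped over nearly the whole range. A clones were higher in 4 of 4 animals, but the log2 difference of 0.38 (SE 0.46, 95% interval -0.59 to 1.35, adjusted p = 0.578) was smaller than its error.

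CDKN2C, the p18 gene, stood lower in A clones in 4 of 4 animals without passing the test. In N clones it ran from 6.75 CPM in clone 22-18, through a median of 16.5, to 22.6 in clone 20-15. In A clones it ran from 4.12 CPM in clone 20-106, through a median of 8.12, to 21.5 in clone 22-121. Of the A clones, 8 lay below the N median and 3 below every N clone. The log2 difference was -0.62 (SE 0.29, 95% interval -1.24 to -0.01, adjusted p = 0.135). Here too, among fits with 1 clone left out, only that without A clone 22-121 passed (-0.87, adjusted p = 0.0182). The others gave differences as small as -0.44 and adjusted p up to 0.257.

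CDKN2D, the p19 gene, was the gene that passed. In N clones it ran from 5.27 CPM in clone 22-18, through a median of 7.49, to 12.3 in clone 23-74, and in A clones from 2.75 CPM in clone 23-14, through a median of 4.74, to 8.58 in clone 17-57. These are 98 to 253 counts per N clone and 42 to 159 per A clone. In all, 5 A clones lay below every N clone and 4 N clones above every A clone, and 9 of 10 A clones were below the N median. The N mean was 7.64 ± 2.14 CPM and the A mean 4.83 ± 1.90 CPM (SD, n = 10 each). The log2 difference was -0.68 (SE 0.20, 95% interval -1.09 to -0.26, adjusted p = 0.0251), less than 2-fold.

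The lower level of CDKN2D in A clones was carried by the animals with several clones. In animal 23, N clones averaged 9.65 ± 1.77 CPM and A clones 4.51 ± 1.65 CPM, and in animal 22 the means were 5.998 ± 0.820 and 3.88 ± 1.19 CPM (SD, n = 4 each). Animal 20 had the same order with 7.86 CPM in its N clone and 6.18 in its A clone, while in animal 17 the A clone was higher, at 8.58 against 5.94 CPM. The call held with each clone left out in turn (adjusted p from 0.00997 to 0.0464) and without clones 22-5 and 22-9 (0.0482). It was lost when all clones of animal 22 (0.135) or of animal 23 (0.366) were left out. In those fits 11.5% and 0.245% of all genes tested passed.

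MDM2 encodes the ligase that marks p53 for degradation. Its level ran from 95.1 CPM in clone 23-10, through a median of 131, to 223 in clone 22-5 among N clones, and from 97.5 CPM in clone 17-57, through a median of 143, to 220 in clone 20-106 among A clones. The ranges coincided, with 0 A clones above or below every N clone. The log2 difference was 0.12 (SE 0.15, 95% interval -0.18 to 0.43, adjusted p = 0.566), the tightest interval of the group.

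For GDF15, N clones spanned 5.64 to 42.9 CPM around a median of 23.0, and A clones 13.0 to 68.7 CPM around a median of 40.5. In all, 4 A clones exceeded the highest N clone and 3 N clones fell under the lowest A clone. Group means were 24.1 ± 13.9 and 40.6 ± 19.7 CPM (SD, n = 10 each), with A clones higher in 4 of 4 animals. The log2 difference of 0.72 (SE 0.37, 95% interval -0.07 to 1.51) did not pass, with an adjusted p of 0.173. The gap was widest in animal 20, with 6.57 CPM in the N clone and 68.2 CPM in the A clone.

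**Figure D2:**
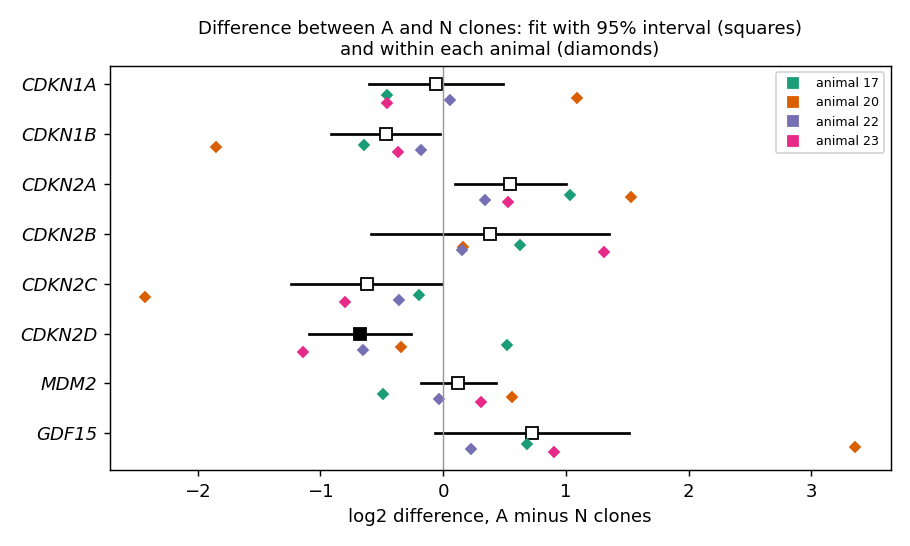
Log2 difference of A minus N clones for the 8 genes tested. Squares and lines are the edgeR fit with its 95% interval (filled where the adjusted p is under 0.05), and diamonds are differences of mean log2 CPM within each of the 4 animals. CDKN2D alone is filled, CDKN2A, CDKN2B and GDF15 have all 4 animals above 0, and CDKN1B and CDKN2C have all 4 below 0.

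Of the donor animals, only 22 and 23, with several clones of each type, were compared, and no difference between them was detected for these genes. Between animals 23 and 22, 0 of 8 genes passed, where 0.14% of all 12900 genes tested did, and 1 stood at an unadjusted p under 0.05 (edgeR's quasi-likelihood test). DESeq2 also gave 0. That gene was CDKN2D, which stood 0.47 higher in animal 23 on the log2 scale (adjusted p = 0.448). Whether the A minus N difference itself differed between animals 22 and 23 was tested as an interaction over their 16 clones. In that test 0 of 9 genes passed, where 0.0288% of 13880 genes did, 1 of the 9 stood at an unadjusted p under 0.05, and the smallest adjusted p was 0.502, for CDKN1C. DESeq2's interaction test gave 0 as well.

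Clones of the same type and animal differed in these genes by different amounts. After removing the mean of each animal and clone type, the SD of log2 CPM was 1.31 for CDKN2B, larger than for 94.3% of the genes tested. It was 0.85 for GDF15, 0.63 for CDKN1A and 0.62 for CDKN2C. MDM2 lay at the middle of the genes tested, with an SD of 0.32 and 49.9% of genes below it. A single A clone, 20-106, held the highest A level of CDKN1A, CDKN2A and MDM2 and the lowest of CDKN2C.

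Clones with more CDKN1A had more MDM2, and clones with more CDKN2A had more CDKN2B. For CDKN1A and MDM2, over the 16 clones of animals 22 and 23 with the mean of each animal and clone type removed, Pearson's r was 0.876 (adjusted p = 0.00236) and Spearman's rho was 0.865 (adjusted p = 0.00438). For CDKN2A and CDKN2B, r was 0.874 (adjusted p = 0.00108) and rho was 0.891 (adjusted p = 0.00144). These are permutation tests, two-sided, adjusted over 12 relations. Without the 2 clones farthest from the median on MDM2 or CDKN2B, r was 0.798 and 0.866, and without clones 22-5 and 22-9 it was 0.870 and 0.869. CDKN1A and GDF15, both p53 targets, gave r = -0.03 (adjusted p = 0.891).

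**Figure D3:**
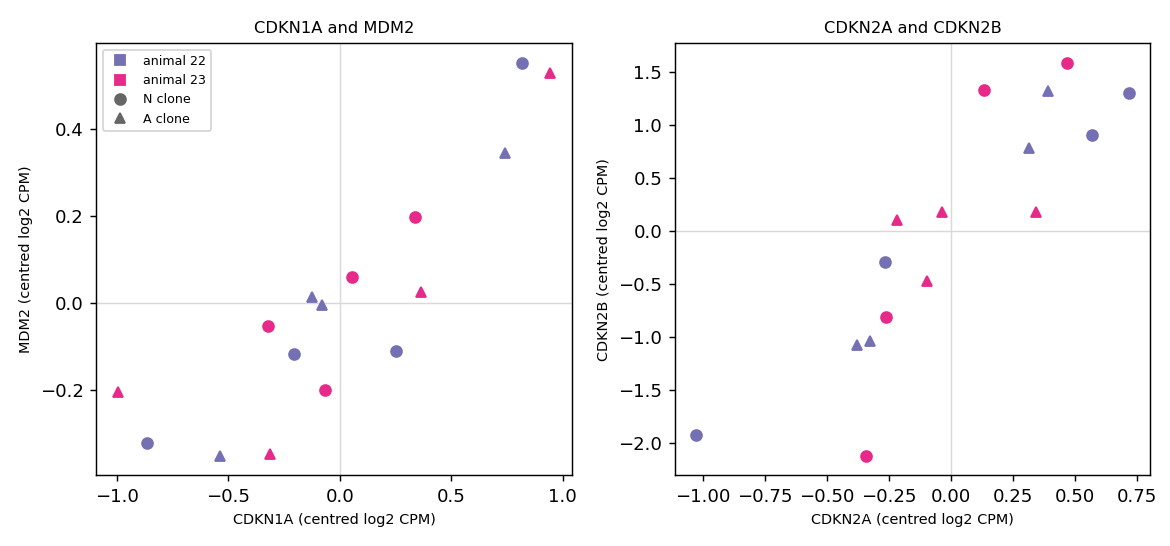
Log2 CPM of MDM2 against CDKN1A (left) and of CDKN2B against CDKN2A (right) in the 16 clones of animals 22 (violet) and 23 (pink), with the mean of each animal and clone type removed, for N clones (circles) and A clones (triangles). Both clouds rise from lower left to upper right, with r of 0.876 and 0.874.

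Both relations were also read within each clone type and within single animals. Without centring, CDKN1A and MDM2 gave r = 0.931 within the 10 A clones and 0.396 within the 10 N clones, where it was 0.0652 without the 2 clones farthest out on MDM2. CDKN2A and CDKN2B gave r = 0.847 within N clones and 0.350 within A clones, where it was -0.61 without the 2 clones farthest out on CDKN2B. Within animal 22 alone r was 0.920 for the first pair and 0.967 for the second, and within animal 23 alone 0.829 and 0.803, with 8 clones each. Both pairs passed in animal 22 (exact permutation tests, adjusted p = 0.0417 and 0.0104) and neither did in animal 23 (exact permutation tests, adjusted p = 0.243 each). Unadjusted p in animal 23 was 0.0573 and 0.0608 (exact permutation tests). The differences between these values were not tested, and passing in 1 animal only does not show that the relations differed between animals. CDKN2A and CDKN2B lie next to each other in the RefSeq annotation of ARS-UCD2.0, with 0 genes between them, and share similar coding sequence, so their counts of unique reads are uncertain where the copies match. Their count ratio, CDKN2A over CDKN2B, ranged from 0.837 to 6.66 in N clones and from 0.899 to 5.40 in A clones. The highest values were in N 23-74 and A 20-106. The part of matching reads in their relation was not tested.

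The A clones also had lower transcript levels of cell cycle genes. The mean log2 CPM over 32 cell cycle genes, used as a cell cycle score, averaged 3.72 ± 0.88 over the A clones and 4.70 ± 0.62 over the N clones (SD, n = 10 each). The two-sided exact permutation test within animals gave p = 0.0131. The lowest score, 1.83, belonged to A clone 20-106 and the lowest N score, 3.57, to clone 22-18. In a bulk library, fewer cycling cells and less RNA of these genes per cell cannot be told apart.

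CDKN2C was the only 1 of the 9 genes whose relation with the cell cycle score passed over the same 16 centred clones. Its r was 0.748 (permutation test, adjusted p = 0.00236) and rho 0.715 (adjusted p = 0.0120), and r was 0.627 without the 2 clones farthest from the median score. The relation passed in animal 23 alone (r = 0.841, exact permutation test, adjusted p = 0.0417) but not in animal 22 alone (r = 0.702, exact permutation test, adjusted p = 0.0833). It did not pass within the 10 A clones (r = 0.656, permutation test, adjusted p = 0.213), where r was 0.243 without the 2 clones with the most distant scores, or within the 10 N clones (r = 0.616, permutation test, adjusted p = 0.133). With MKI67 in place of the score, r passed (0.686, adjusted p = 0.0106) and rho did not (0.588, adjusted p = 0.12). The other 8 genes gave values between -0.38 for CDKN2B and 0.48 for CDKN2D, and the smallest adjusted p among the relations that did not pass was 0.159. CDKN2D did not pass over the 16 clones, but without clones 22-5 and 22-9 it gave r = 0.698 (permutation test, adjusted p = 0.0371) and rho = 0.635 (adjusted p = 0.0565), and with MKI67 in place of the score rho was 0.653 (adjusted p = 0.0390) and r 0.536 (adjusted p = 0.103). Leaving out those 2 clones also turned the sign of r for CDKN2A (from -0.37 to 0.259), MDM2 (from 0.244 to -0.05), CDKN1C and GDF15, which did not pass in either case. CDKN1A gave r = 0.446 (adjusted p = 0.347) over both animals, but 0.913 in animal 22 alone (exact permutation test, adjusted p = 0.0104) and -0.07 in animal 23 alone (exact permutation test, adjusted p = 0.958). Without the 2 clones with the most distant scores in each animal, r was 0.801 in animal 22 and 0.339 in animal 23. Over both animals without clones 22-5 and 22-9, r for CDKN1A was 0.185. The difference between animals was not tested.

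**Figure D4:**
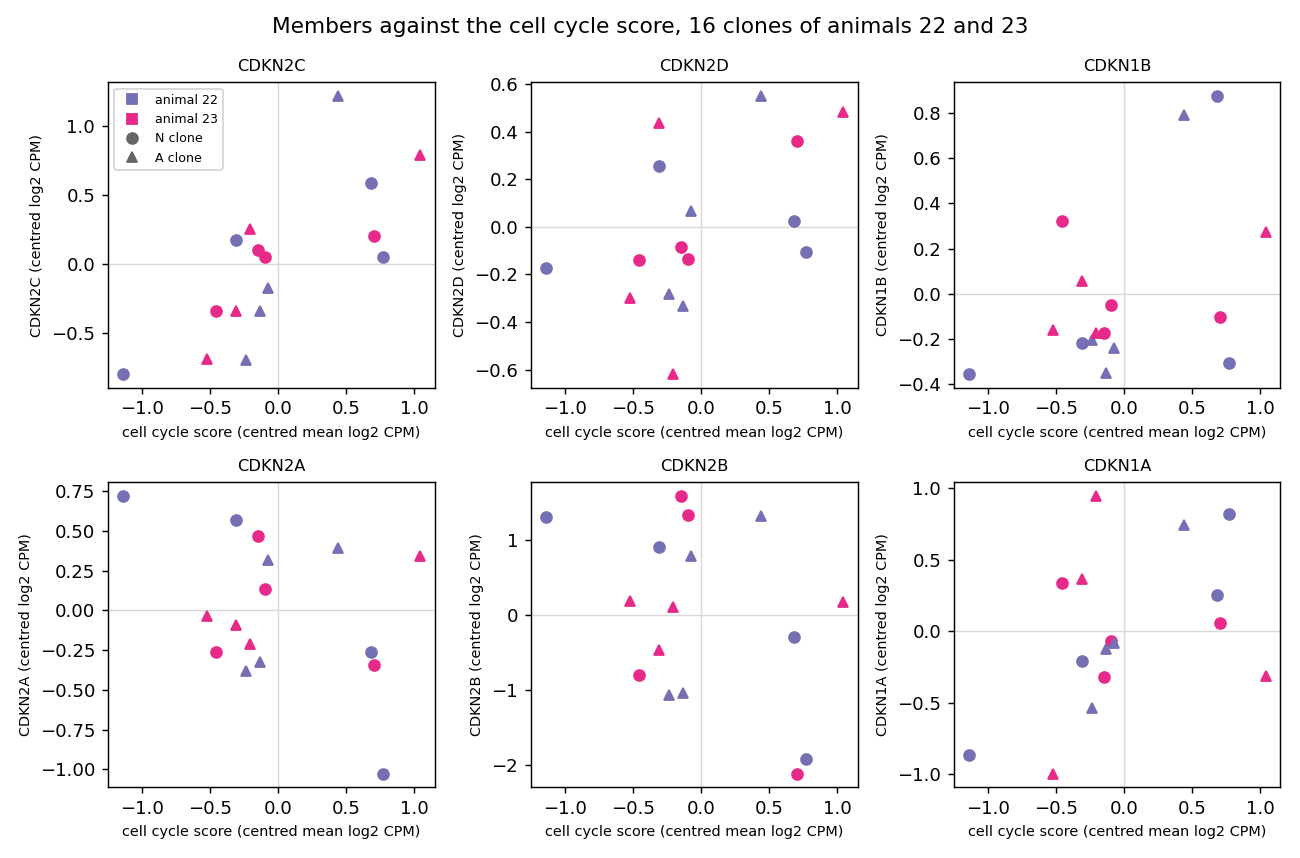
Log2 CPM of CDKN2C, CDKN2D, CDKN1B, CDKN2A, CDKN2B and CDKN1A against the cell cycle score (mean log2 CPM of 32 genes) in the 16 clones of animals 22 (violet) and 23 (pink), with the mean of each animal and clone type removed, for N clones (circles) and A clones (triangles). The CDKN2C cloud rises with the score (r = 0.748). For CDKN1A, r is 0.913 in animal 22 and -0.07 in animal 23, a difference that was not tested.

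With the cell cycle score as a covariate, the difference of CDKN2C between A and N clones went from -0.62 to 0.05 on the log2 scale and that of CDKN1B from -0.47 to -0.04. CDKN2D went from -0.68 to -0.57 and lost its call (adjusted p = 0.178), and CDKN2A went from 0.55 to 0.28. In this fit 4.86% of all genes tested passed. The part of the cell cycle genes in the differences of the inhibitors was not tested beyond this fit, since the score and the clone type move together.

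The wider pathway was read from 9 lists of 194 genes in all. Of the 184 tested, 60 passed, 11 higher and 49 lower in A clones, which is 32.6% against 20.6% of all genes. Leaving out 1 clone at a time gave 37 to 76, with 37 without N clone 22-9 and 39 without N clone 23-74. Without clones 22-5 and 22-9 the count was 27, where 14.2% of all genes tested passed.

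Of 18 regulators of p53 tested, 1 rose and 3 fell in A clones, 22.2% against 20.6% of all genes. The checkpoint kinase gene CHEK1 (log2 difference -0.59, adjusted p = 0.00936), the deacetylase gene SIRT1 (-0.47, 0.0107) and the acetyltransferase gene KAT5 (-0.41, 0.0259) fell, and the p53 kinase gene DYRK2 rose (0.75, 0.0354). MDM4, the partner of MDM2, had a log2 difference of -0.32 with an adjusted p of 0.0879. Without clones 22-5 and 22-9 this list had 2 genes past the threshold, and without 22-9 alone also 2.

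Of 34 other p53 targets tested, 1 rose and 5 fell in A clones, 17.6% against 20.6% of all genes, with a median log2 difference of -0.18. TP53I3, a quinone oxidoreductase gene, averaged 7.06 ± 4.75 CPM in N and 2.02 ± 0.755 CPM in A clones (log2 difference -1.88, adjusted p = 0.00253), with 8 A clones under the lowest N clone. BAX, the pore-forming mediator of cell death, had a log2 difference of -0.49 (adjusted p = 0.0242). PLK2, a kinase gene, had a log2 difference of -0.58 (adjusted p = 0.0298). PERP, an adhesion gene, rose from 24.8 ± 31.6 to 76.1 ± 58.8 CPM (log2 difference 2.17, adjusted p = 0.0182). The count of this list was 3 without N clone 17-23 or 22-5 or A clone 17-57 or 22-11, and 11 without A clone 22-121. It was also 3 without both 22-5 and 22-9.

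Of 15 genes tested in the list of CDKs and cyclins, 3 rose and 3 fell in A clones, 40% against 20.6% of all genes. CDK6, a kinase bound by the INK4 proteins, averaged 162 ± 46.7 CPM in N and 267 ± 126 CPM in A clones (log2 difference 0.65, adjusted p = 0.0405). Cyclin genes CCND2 (1.28, adjusted p = 0.0130) and CCNE1 (0.51, 0.0114) rose too. CDK1, the mitotic kinase gene, had a log2 difference of -1.37 (adjusted p = 0.00692), and the mitotic cyclin gene CCNB2 of -1.19 (0.0276). CCNA2, the remaining gene that fell (-1.33, 0.0297), was named after its values were seen. CDK4, CDK2 and CCND1 did not pass, with log2 differences of -0.13, -0.47 and 0.42 and adjusted p of 0.525, 0.179 and 0.148. The count of 6 became 3 without N clone 20-15, 22-9 or 23-74 or A clone 20-106, and also without both 22-5 and 22-9.

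The RB and E2F list, the proteins downstream of CDK4 and CDK6, had 1 gene higher and 4 lower of 17 tested, 29.4% against 20.6% of all genes. The genes that fell were TFDP1, RBL2, LIN9 and RB1, with log2 differences of -0.35, -0.34, -0.59 and -0.47. RB1, the retinoblastoma gene, had an adjusted p of 0.0481, at the edge of the threshold, and LIN54, which rose by 0.33 and was named after its values were seen, of 0.0496. Leaving out 1 clone at a time gave 2 to 6 genes for this list, and it was under 4 without any 1 of 15 clones and 2 without both 22-5 and 22-9. Of 17 genes for inhibitor turnover and CDK phosphorylation, 0 rose and 2 fell, 11.8% against 20.6% of all genes. They were the cullin gene CUL4B (log2 difference -0.66, adjusted p = 0.0065) and RNF123 (-0.26, 0.0467), whose product helps degrade p27. The latter list had 1 to 3 genes past the threshold with 1 clone left out and 1 without both 22-5 and 22-9.

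Of 25 genes known to control transcription of the inhibitors, 10 fell and 1 rose in A clones, 44% against 20.6% of all genes, and the count stayed at 10 to 12 with 1 clone left out and was 9 without clones 22-5 and 22-9. SMAD3, which carries the TGF-beta signal to CDKN2B, averaged 133 ± 45.2 CPM in N and 69.3 ± 36.9 CPM in A clones (log2 difference -1.003, adjusted p = 0.00134), and SMAD4 had a log2 difference of -0.36 (0.00507). KLF6, an activator of CDKN1A, fell from 374 ± 55.2 to 226 ± 52.5 CPM (-0.73, 0.00168), with 9 A clones under the lowest N clone. ID2, an inhibitor of helix-loop-helix factors, had a log2 difference of -0.84 (0.00446). MYC, a repressor of CDKN1A and CDKN2B, was the gene that rose (0.60, 0.0232), and it was named after its values were seen.

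Of 15 integrated stress response genes, the other known input to GDF15, 0 rose and 2 fell in A clones, CEBPB (log2 difference -0.89, adjusted p = 0.00668) and ATF3 (-1.10, 0.0262). That is 13.3% against 20.6% of all genes, and 14 of the 15 fitted differences were below 0. GDF15 itself had a positive difference that did not pass. The count of this list was 4 without A clone 23-14 and 1 without clones 22-5 and 22-9.

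Of 11 senescence-associated genes tested, 4 rose and 2 fell in A clones, 54.5% against 20.6% of all genes. IL6, an inflammatory cytokine gene, was at 0 to 2.52 CPM in N and 0.293 to 34.1 CPM in A clones, and the growth factor binding protein gene IGFBP3 averaged 15.2 ± 31.5 and 201 ± 378 CPM (log2 difference 4.40, adjusted p = 0.0123). CCL2, a chemokine gene, averaged 49.3 ± 83.0 and 217 ± 219 CPM (3.49, 0.0307), and the chromatin gene HMGB2 had a log2 difference of -1.01 (0.00948). The others, TIMP1 (0.97, 0.0437) and LMNB1 (-1.23, 0.0333), were named after their values were seen. The SDs of IGFBP3 and CCL2 in A clones exceeded their means, and the count was 3 without N clone 23-10 or 23-74 and 4 without both 22-5 and 22-9. CDKN1A and CDKN2A, which are used beside these genes as signs of senescence, gave adjusted p of 0.892 and 0.0759 in the same fit.

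All 32 cell cycle genes had fitted differences below 0, and 18 of them fell in A clones, 56.2% of the list against 20.6% of all genes. Among them were AURKB (log2 difference -0.76, adjusted p = 0.00874), RRM1 (-0.63, 0.0157), KIF23 (-1.31, 0.0172) and KIF11 (-0.96, 0.0187), genes of chromosome segregation and nucleotide synthesis. MKI67, the antigen of cycling cells, averaged 103 ± 59.2 CPM in N and 35.6 ± 28.2 CPM in A clones (-1.77, 0.0242), and PCNA, the replication clamp, had a log2 difference of -0.55 with an adjusted p of 0.0768. The count was between 8 and 10 when N clone 17-23, 20-15, 22-5, 22-9 or 23-74 or A clone 17-57 or 20-106 was left out. In those fits 15.3% to 19.1% of all genes tested passed. Without both 22-5 and 22-9 the count was 2, where 14.2% of all genes tested passed, so the larger share of this list was not seen without those clones. Why the count fell was not tested.

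**Figure D5:**
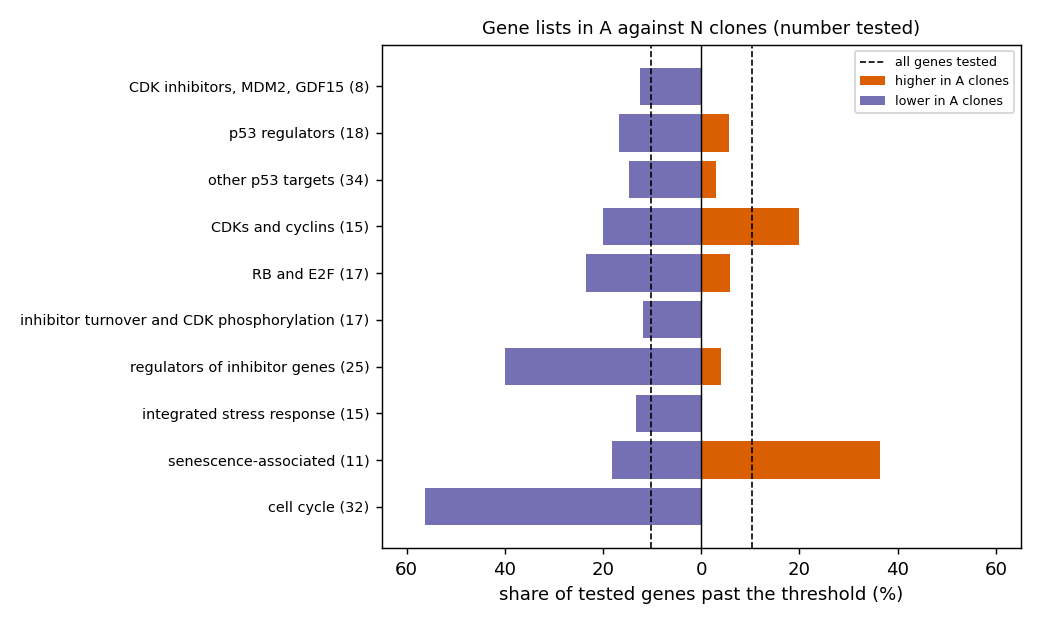
Share of the tested genes of each list (percent; number tested in brackets) that passed an adjusted p of 0.05, lower in A clones to the left and higher to the right, with dashed lines at the share of all 12900 genes tested (10.3% in each direction). The inhibitor group has 12.5% on the left and none on the right, while the cell cycle list and the regulators of the inhibitor genes extend farthest to the left.

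The genes whose log2 CPM followed each inhibitor most closely over the 20 clones were also listed, as a description. These clones share animals and clone types, and 12899 other genes were ranked by Pearson's r. CDKN2A was followed most closely by FOCAD (r = 0.911), which lies on the same chromosome in ARS-UCD2.0 with 77 annotated genes between them, then by GALNT16 (0.884) and SMIM7 (0.875). CDKN2B was followed by MEOX1 (0.862), ATP7A (0.843) and KLF12 (0.833). CDKN2C was followed by MXD3 (0.893), a MAX-binding repressor, NRM (0.875) and STMN1 (0.872), a microtubule regulator. For CDKN2D the genes were PECR (0.870), PSMB5 (0.862) and TBL1X (0.860).

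PTP4A1, a protein phosphatase gene, led the ranking for both CDKN1A (0.797) and MDM2 (0.785). CDKN1A was followed next by LOC101902124 (0.782) and TEAD2 (0.759), and MDM2 by BCL7A (0.785) and LOC112441639 (0.746). CDKN1B was followed by USE1 (0.883), ZNF180 (0.877) and TRIM5 (0.859), a ranking in which clone 20-15 holds a CDKN1B level of 65.6 CPM against 28.6 in the next clone. GDF15 was followed by GPAT3 (0.85), an enzyme gene of triglyceride synthesis, then GAB2 (0.742) and SENP6 (0.712).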

How the data were processed

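RNA sequencing of 20 undifferentiated bovine MSC clones was analysed from the deposited raw counts per gene. Per the labels and methods, the authors trimmed reads (Trimmomatic 0.36), mapped them with STAR 2.5.2b to ARS-UCD1.2 and counted unique reads in exons (Subread 1.5.2). Strand and overlap settings are not given in the sources used here, so genes that overlap or resemble each other are uncertain. Of 33064 table rows, the 1 without a name (0.113% to 0.333% of counts) was left out.

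Counts were fitted with edgeR 4.0.16 in R 4.3.3 (TMM, default expression filter, robust quasi-likelihood F test, animal as block) and adjusted by Benjamini-Hochberg over all genes. A and N clones shared animals, and their deviations correlated at 0.253, 0.193, 0.241 and 0.440 in animals 17, 20, 22 and 23. A prior count of 2 went into log2 CPM. Relations were tested with 100000 permutations within animal and clone type, or exact enumeration within 1 animal. A count of 0 was given a floor of 3 counts, which covers counting error only. Nothing says that the clones of 1 animal are separate biological replicates beyond separate single-cell sorts.

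Members and gene lists were chosen with earlier results of these data known. All 9 members are named, and from each list the genes always reported (MDM4, CDK2, CDK4, CDK6, CCND1, RB1, MKI67, PCNA) and up to 4 with the smallest adjusted p past 0.05. Results for 2 list genes are not reported here, and the lists were counted without them. The 3 most alike genes are named for each member tested. Alternatives were no block, other normalizations and filters, DESeq2 1.42.0, limma-voom (limma 3.58.1), no robust estimation, the cell cycle score as covariate, summed counts, and animals or clones left out. Fits were tested on simulated data.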

Additional observations from a re-analysis of the deposited data

Results flagged for a closer look

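In groups of 10 clones, a clone stood apart from the others when its gap to the next clone exceeded Dixon's 95% limit for the share of the group's range. This was so in 4 of 22 groups examined, where chance gives about 1.1. Among N clones, CDKN1B was highest in clone 20-15 (gap 0.493 of the range on the log2 scale), at 65.6 CPM against 28.6 in the next clone. CDKN2C was lowest in N clone 22-18 (0.489), at 6.75 CPM against 12.2, and MDM2 was highest in N clone 22-5 (0.470), at 223 CPM against 149. The total count was highest in N clone 22-18 (0.574), at 43111345 against 23425994. No A clone was set apart in this way for any of the 9 genes.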

How the results depend on the processing

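The animals pair the clones, so the block is part of the main fit; without the replicate block CDKN2D still passed (log2 difference -0.66, adjusted p = 0.0416), 1 of 8 genes passed, and 45 list genes passed in place of 60. Members past the threshold numbered 2 with DESeq2 (with or without the block) and limma-voom, and 0 with the cell cycle score as covariate, with summed counts, without animal 23, and in animal 22 or 23 alone. Leaving out 1 clone gave 1 to 3. Without animal 22 the count stayed at 1, but the gene was CDKN2A and not CDKN2D. Over all genes tested, 4.86% passed with the score, 0% with summed counts, 0.245% without animal 23 and 11.5% without animal 22. In animal 22 or 23 alone, 1.15% or 6.22% of all genes passed. The list genes past the threshold numbered 9 with the score as covariate, 34 without animal 22, 0 without animal 23, 0 in animal 22 alone, 10 in animal 23 alone and 0 with summed counts, and leaving out 1 clone gave 37 to 76. Without clones 22-5 and 22-9 the count was 27. Relations past the threshold numbered 1 within A clones, 1 within N clones and 1 in animal 23 alone, in place of 3, where 10 or 8 clones entered in place of 16. CDKN1A was negative in the main fit and positive without the block (0.0279, DESeq2 0.0353), with the score (0.0735), with summed counts (0.133), without animal 23 (0.0982) and without clones 22-5 and 22-9 (0.119). Leaving out 1 clone gave -0.180 to 0.0580. CDKN2C was 0.0492 with the score, and MDM2 was -0.0281 without animal 23 and -0.0600 in animal 22 alone. The causes were not tested, except that fewer clones or sums enter where animals are left out or summed. The alternatives without clones 22-18 and 20-106 or without 22-5 and 22-9, and for the lists those with single clones, single animals or summed counts, were chosen after seeing the data. CDKN1C did not pass the filter of the main fit, so its difference between A and N clones is from the fit without the filter. It did pass the filter of the interaction test. CDKN1C had 0 to 160 counts per library, and the part of depth in its result was not tested.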
